A study of Homo sapiens with 3 samples.

Results

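Skipped exons of 7 genes of the actomyosin motor system were followed: the heavy chains MYO5A, MYO6, MYO9B, MYO18A and MYH10, the light chain MYL6, and MPRIP, a partner of myosin phosphatase. They were chosen by gene symbol, and all rows with these symbols in the 2 deposited tables of exon-skipping events were taken. These are 60 exons: 46 are listed in both tables, 6 only in the RS2 table and 8 only in the RS3 table. An event is 1 row for a skipped exon. Of 40702 events of the RS2 table, 56 belong to the 7 genes, and of 42518 events of the RS3 table, 61.

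The cells were BJ fibroblasts, an established line from human foreskin, on day 8 after viral expression of OSKM had been induced, that is OCT4, SOX2, KLF4 and MYC, which reprogram cells towards pluripotency. All 3 libraries share this treatment. One library was from cells given a non-targeting siRNA (genotype WT), another from SMAD3 siRNA (SMAD3 Knock-down) and the last from SFRS11 siRNA (SFRS11 Knock-down), with 1 library per group and no replicates. SMAD3 transmits TGF-beta signals to the nucleus, and SFRS11, now named SRSF11, is a splicing factor.

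Each table sets 1 library, coded RS2 or RS3, against a shared library, called the comparator here. No label ties these codes to a siRNA, so it cannot be said which code is which siRNA, that of the comparator included. A difference in inclusion level is the share of transcripts over a region that keep the exon in RS2 or RS3, minus that share in the comparator, on a scale from -1 to 1. An event was called where the deposited false discovery rate (FDR) was under 0.05 and the absolute difference at least 0.1. Each p-value compares 2 libraries and carries no error between replicates. Read depth was not used here and is unknown, so no interval is given. The tables measure splicing and not the amount of RNA, so the cell type could not be checked against its markers. A marker is listed only if it has an exon-skipping event: 11 of 12 fibroblast markers were in each table, 3 of 10 muscle markers in RS2 and 4 in RS3, 3 and 4 of 6 epithelial markers, and 1 and 2 of 5 pluripotency markers. POU5F1, which encodes the induced factor OCT4, was in neither table, so these counts say nothing of expression.

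Myosins are motors that hydrolyse ATP to move along or pull on actin filaments. A heavy chain has a motor head, a neck that binds light chains, and a tail that binds cargo, pairs with another heavy chain or assembles into filaments. Alternative exons of the tail and neck are a known way in which a single myosin gene makes forms with different cargo or activity. In fibroblasts, non-muscle myosin filaments give stress fibres their tension, and phosphorylation of light chains sets that tension through a kinase and a phosphatase.

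The exons that carry the results are printed here because 4 of them had an FDR under 0.05 in RS3. The MYO5A exon of 75 bases did not, and is the next tested exon after that of 81 bases. The letters come from GENCODE release 29 transcripts on GRCh38, since a genome of the tables' build hg19 was not used here. Each was matched by gene, strand and exon length. The 9, 75, 45 and 63 base exons are the only annotated exons of their length in their gene. MYO5A has 2 annotated exons of 81 bases, and the one lying between the exons of 9 and 75 bases, as in the tables, was taken. Capitals mark the skipped exon, and lower case marks 12 bases of the exons that flank it in the annotated transcript. For MYL6 and MPRIP the capitals end at the stop codon and the rest of the exon is left out.
MYO5A 9-base exon (GRCh38 chr15:52348818-52348826, minus strand): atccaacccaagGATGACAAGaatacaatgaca
MYO5A 81-base exon (GRCh38 chr15:52343117-52343197, minus strand): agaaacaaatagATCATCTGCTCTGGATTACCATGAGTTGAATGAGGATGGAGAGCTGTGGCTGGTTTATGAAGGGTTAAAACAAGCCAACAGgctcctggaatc
MYO5A 75-base exon (GRCh38 chr15:52337810-52337884, minus strand): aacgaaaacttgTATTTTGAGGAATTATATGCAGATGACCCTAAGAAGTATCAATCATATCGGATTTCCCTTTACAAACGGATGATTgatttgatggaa
MYL6 45-base exon (GRCh38 chr12:56160626-56160670, plus strand): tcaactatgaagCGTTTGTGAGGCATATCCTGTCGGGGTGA
MPRIP 63-base exon (GRCh38 chr17:17180607-17180669, plus strand): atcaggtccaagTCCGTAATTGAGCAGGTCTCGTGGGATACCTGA

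All bases of the 3 MYO5A exons are coding, and their lengths are multiples of 3, so each can be skipped without a shift of the reading frame. The exons of 9 and 81 bases are numbers 29 and 31 of an annotated transcript with 42 exons. In MYL6 and MPRIP the skipped exon holds a stop codon, after 26 and 30 coding bases, so its inclusion in these transcripts sets the end of the protein. Annotated coding transcripts that reach past the exon on both sides hold it in 6 of 9 cases for the MYO5A exon of 9 bases and in 5 of 9 for that of 81 bases. For the MYO5A exon of 75 bases this was 1 of 7, for the MYL6 exon 3 of 12 and for the MPRIP exon 2 of 9.

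The called events of the 7 genes were 2 MYO5A exons with lower inclusion in RS3 than in the comparator. No event of the 7 genes was called in RS2. In RS3 these were 2 of 61 events, both lower and both of 1 gene. That share is above the 0.967% of all RS3 events that were called and the 0.736% called as lower. In RS2 it was 0 of 56, where 0.0712% of all events were called. At an unadjusted p under 0.05, 3 RS2 events of the 7 genes were listed (MYL6, MPRIP and MYO18A), which is 5.36% against 4.52% of all RS2 events. In RS3 it was 4 events, or 6.56% against 7.61% of all, so both shares are near the background. An FDR under 0.05 regardless of size was listed for the same 4 of the 61 RS3 events, in MYO5A, MYL6 and MPRIP. That is 6.56%, above the 1.64% of all RS3 events. The same was true of 0 of the 56 RS2 events, against 0.165% of all RS2 events. With a minimum difference of 0.2 the RS3 count was 1 of 61, against 0.445% of all events, and with 0.05 it was 4 of 61, against 1.33%. In RS2 both counts were 0 of 56, against 0.027% and 0.103%. These shares describe genes that were picked with earlier results in view.

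**Figure D1:**
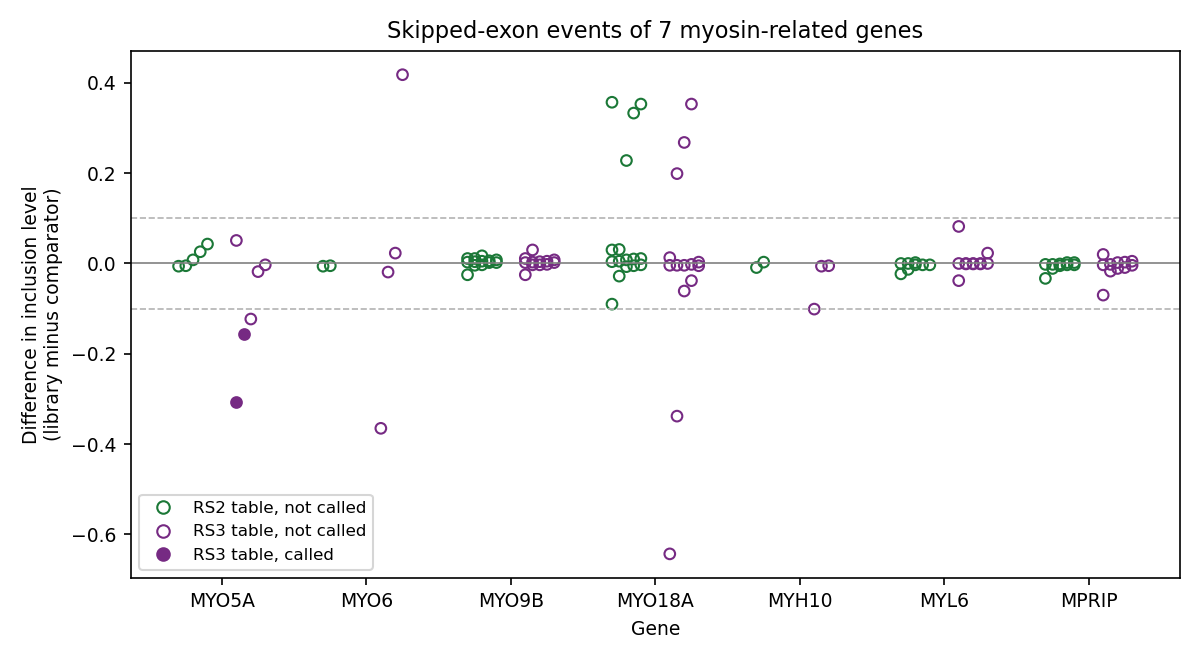
Difference in inclusion level (library minus comparator) of every event of the 7 genes; each circle is 1 event, green for the RS2 table and purple for the RS3 table, filled where called, and dashed lines mark a difference of 0.1 in size. Only 2 MYO5A events are filled, at -0.306 and -0.156, and larger open circles belong to MYO18A and MYO6.

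MYO5A (ENSG00000197535, chromosome 15, minus strand) is a processive motor that carries melanosomes, vesicles and other cargo along actin. Its tested tail exons are known by letters: the exon of 9 bases is called B, that of 81 bases D and that of 75 bases F. Exon F is part of the site for melanophilin, exon B takes part in binding a dynein light chain, and exon D in binding RAB10. The brain form carries B, and the melanocyte form carries D and F.

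Exon D of MYO5A (hg19, 52635314 to 52635394) had the lowest called difference of the 7 genes. The authors' deposited table gave -0.306 in RS3, with a p-value of 5.36e-09 and an FDR of 1.88e-06. For RS2 the value of the authors' deposited table was 0.026, with a p-value of 0.601 and an FDR of 1. By p-value it was number 121 of the 42518 RS3 events. RS3 thus lay below the comparator at this exon, and RS2 was listed near it.

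Exon B, the microexon of 9 bases (hg19, 52641015 to 52641023), was also called in RS3. The authors' deposited table listed a difference of -0.156 with a p-value of 8.65e-07 and an FDR of 0.00018 in RS3. For RS2 the authors' deposited table gave -0.006 with an FDR of 1. Both exons were thus lower in RS3. Each exon has 1 row per table, so neither value depends on a choice among rows, and the 2 exons belong to the same gene and are not replicates.

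The other MYO5A exons had an FDR of 1 in every table that lists them. Exon F (hg19, 52630007 to 52630081) stood, per the authors' deposited table, at 0.008 in RS2 and -0.018 in RS3. The exon of 114 bases, the next one upstream of exon B among those tested, was at -0.005 in RS2 and -0.003 in RS3 in the authors' deposited table. Further towards the 5′ end, the exon of 145 bases had 0.043 in RS2 and 0.051 in RS3 in the authors' deposited table. An exon of 108 bases, listed only for RS3, had -0.123 in the authors' deposited table with a p-value of 0.251. Of the 3 tail exons B, D and F, those called as lower in RS3 were thus B and D. Whether these differ from F was not tested. Inclusion levels per library were not used, so a difference near 0 does not show how often exon F is kept.

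MYL6 (ENSG00000092841, chromosome 12) encodes the essential light chain that binds the neck of non-muscle and smooth muscle myosin. Its alternative exon near the end of the coding region, the 45-base exon printed above, is known to separate the non-muscle from the smooth muscle form. That exon (hg19, 56554410 to 56554454) had a difference of 0.082 in RS3 in the authors' deposited table, with a p-value and an FDR listed as 0. A p-value listed as 0 is the lowest possible, and MYL6 is not alone there, since the S100A4 exon given below has it in RS3 too. The difference is under the minimum of 0.1, so the event was not called. In RS2 the authors' deposited table gave -0.013, with a p-value of 0.0118 and an FDR of 0.780. RS3 therefore lay above the comparator and RS2 was listed slightly below it, the RS2 value without passing the FDR.

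The other MYL6 events lay close to 0. In RS2 they ranged from -0.023 to 0.002 and in RS3 from -0.038 to 0.023 in the authors' deposited table. The extremes at the low end were those of a 77-base exon at the 3′ end, with an FDR of 1 for RS2 and RS3 in the authors' deposited table. Some of these events overlap: the exons of 125, 144 and 36 bases share bases, as do those of 144 and 108 bases, so they are not separate measurements. Of the 11 RS3 events, 5 were listed at exactly 0. The name table lists 5 pseudogenes named after MYL6 and 1 after MPRIP, and how reads that match several copies were treated is not known, so the values of these genes are uncertain to that extent.

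MPRIP (ENSG00000133030, chromosome 17, plus strand) binds the myosin-targeting subunit of the phosphatase and RhoA, and brings the phosphatase to actin stress fibres. Its 63-base exon (hg19, 17083921 to 17083983) is the last tested exon of the gene. For RS3 the authors' deposited table listed a difference of -0.070, with a p-value of 7.59e-06 and an FDR of 0.00114. The RS2 value of the authors' deposited table was -0.033, with a p-value of 0.0156 and an FDR of 0.844. RS3 had a lower inclusion of this exon by less than the minimum of 0.1, and the RS2 value did not pass the FDR.

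The remaining MPRIP exons, with 9 events in RS2 and 10 in RS3, had differences of at most 0.020 in size in the authors' deposited table. The exon with the value of 0.020 has 120 bases and lies next to the 63-base exon among those tested. Its p-value in RS3 was 0.0609 in the authors' deposited table and its RS2 difference was -0.003. A very long exon of 3807 bases was at -0.001 in RS2 and 0.003 in RS3 in the authors' deposited table. Inclusion of MPRIP exons other than the 63-base one was thus listed within a narrow band around the comparator.

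**Figure D2:**
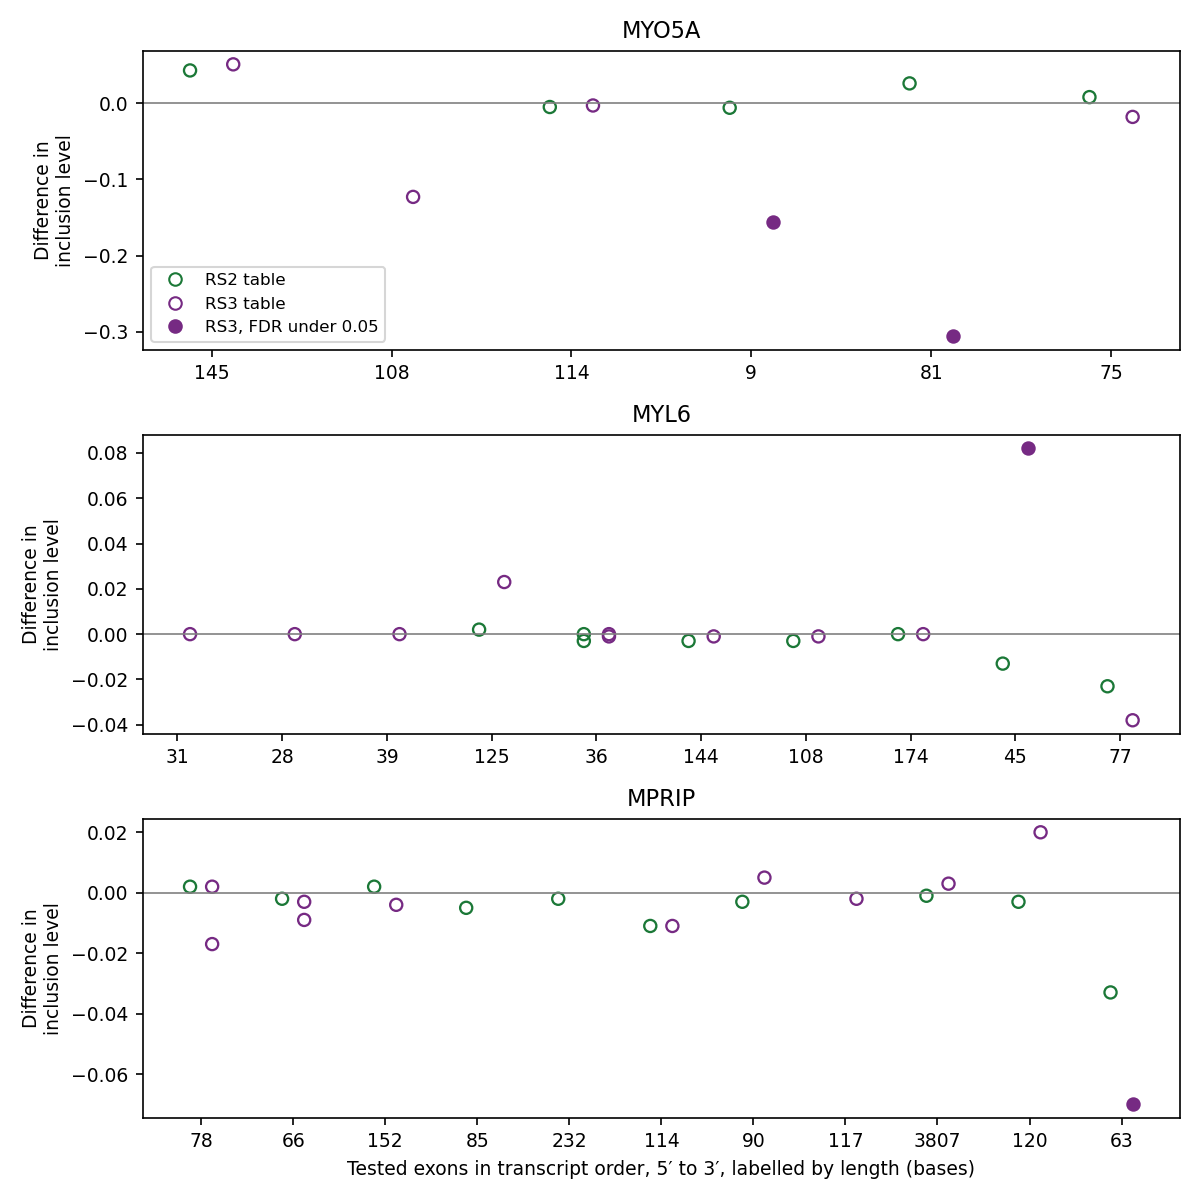
Difference in inclusion level at each tested exon of MYO5A, MYL6 and MPRIP, in transcript order and labelled by exon length in bases; green is the RS2 table, purple the RS3 table, and filled circles have an FDR under 0.05. The vertical scales differ between the panels: the filled circles are at -0.156 and -0.306 in MYO5A, 0.082 in MYL6 and -0.070 in MPRIP.

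MYO18A (ENSG00000196535, chromosome 17, minus strand) encodes an unusual myosin that binds actin but has little motor activity, and links the Golgi protein GOLPH3 to actin. It had the widest values of the 7 genes and no called event. Its 36-base exon (hg19, 27451671 to 27451706) has 3 rows per table. In RS2 the authors' deposited table listed 0.228, 0.333 and 0.357, with p-values of 0.0383, 0.240 and 0.224. In RS3 the authors' deposited table listed -0.038, -0.338 and -0.643, with p-values of 0.490, 0.689 and 0.541. All RS2 rows were above the comparator and all RS3 rows below it, but every FDR was 1.

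The tables leave out the flanking exons, so rows of a single exon cannot be paired between them. The 75-base exon of MYO18A (hg19, 27452911 to 27452985) shows how far rows can differ. Its RS2 rows in the authors' deposited table were -0.090 and 0.353, with p-values of 0.731 and 0.652. Its RS3 rows in the authors' deposited table were 0.268 and 0.353, with p-values of 0.422 and 0.652. All had an FDR of 1. The values of 0.353 have the same p-value in RS2 and RS3 and share the comparator, so they are not independent. At the 12-base microexon of MYO18A (hg19, 27443462 to 27443473) the authors' deposited table had 0.199 in RS3, with a p-value of 0.0668 and an FDR of 0.736. In RS2 this microexon was at 0.030 in the authors' deposited table, with a p-value of 0.831. Forms of 177 and 189 bases of another MYO18A exon overlap and are not separate measurements. The other MYO18A exons lay between -0.061 and 0.031 over both tables of the authors' deposited table.

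MYO6 (ENSG00000196586, chromosome 6) is the myosin that walks towards the pointed end of actin filaments, and works in endocytosis and at the Golgi. Its tail is known to take alternative inserts. All 3 tested exons are short, of 27, 30 and 39 bases, and every length is a multiple of 3. The 30-base exon (hg19, 76604948 to 76604977) had RS3 rows of 0.418 and 0.023 in the authors' deposited table, with p-values of 0.294 and 0.532. Its single RS2 row was -0.006 in the authors' deposited table. The 27-base exon, listed only for RS3, was at -0.365 in the authors' deposited table with a p-value of 0.477. At the 39-base exon the authors' deposited table had -0.005 in RS2 and -0.019 in RS3. Every MYO6 event had an FDR of 1, so none of these differences passed the test.

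MYH10 (ENSG00000133026, chromosome 17) is a heavy chain of the non-muscle myosin that forms contractile filaments. It had the fewest listed exons among the heavy chains together with MYO6. Its 105-base exon was at -0.009 in RS2 and -0.005 in RS3 in the authors' deposited table, and its 74-base exon at 0.003 and -0.006. A 70-base exon, listed only for RS3 (hg19, 8422199 to 8422268), had -0.101 in the authors' deposited table at a p-value of 0.230 and an FDR of 1.

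MYO9B (ENSG00000099331, chromosome 19) is a motor whose tail carries a GTPase-activating domain. It had 13 events in RS2 and 12 in RS3, all of them small. In the authors' deposited table the differences ran from -0.025 to 0.017 in RS2 and from -0.025 to 0.030 in RS3. For RS2 the exon of 135 bases had the smallest p-value of the gene in the authors' deposited table, 0.196, with a difference of 0.011. For RS3 it was the exon of 114 bases, which the authors' deposited table lists at 0.030 with a p-value of 0.437. An FDR of 1 was listed for every MYO9B event.

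**Figure D3:**
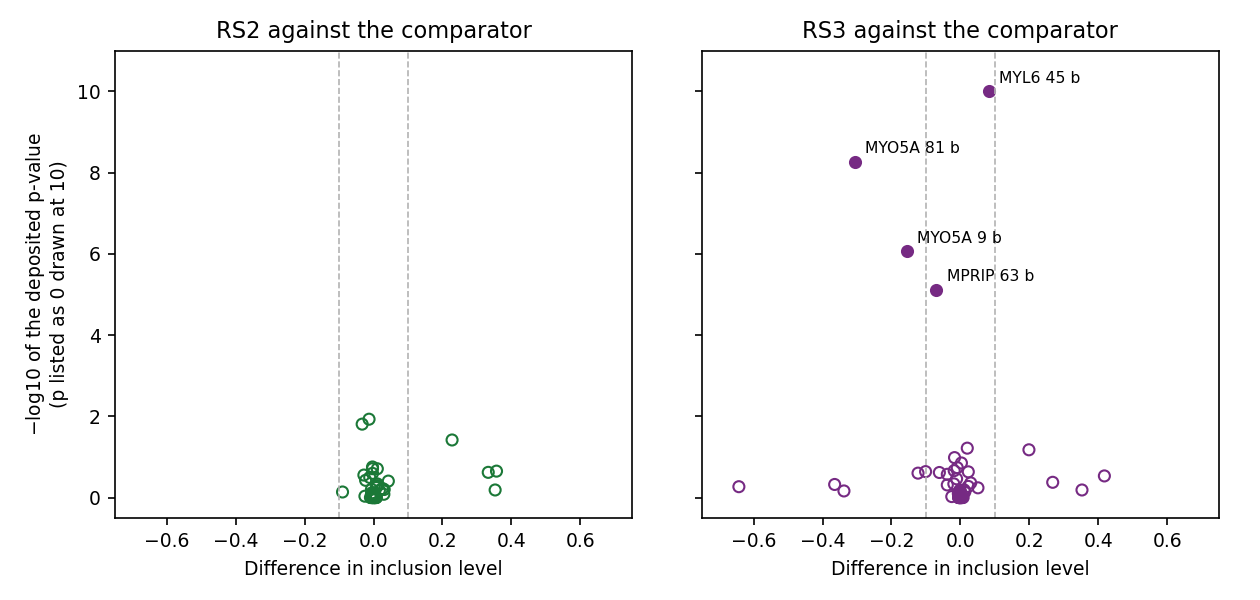
Size of each difference (horizontal, inclusion level) against the deposited p-value (vertical, as −log10, with a p-value listed as 0 drawn at 10) for the events of the 7 genes in both tables; filled circles have an FDR under 0.05 and b stands for bases. The 4 filled circles of RS3 range from -0.306 to 0.082, while the open circles past 0.1 in size lie near the bottom of the panel.

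Size and p-value thus ranked the events differently. Of the RS2 events of the 7 genes, 4 had a difference of at least 0.1 in size, all in MYO18A and none called. That is 7.14%, where 19.2% of all RS2 events reached this size. In RS3 it was 11 events, or 18.0% against 21.2% of all, of which 2 were called. Differences under 0.05 in size made up 91.1% of the RS2 events and 75.4% of the RS3 events of the 7 genes, against 69.7% and 67.3% of all events. The median difference of the 7 genes was 0.0010 in RS2 and -0.0020 in RS3, and that of all events 0.0000 and -0.0010.

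Exon length was not part of the rule by gene symbol, but the genes were picked with earlier results in view. Overlapping forms, such as those of MYL6 and MYO18A, were counted here as separate exons. A length that is a multiple of 3 was found for 38 of the 52 exons of the 7 genes in RS2 (73.1%, against 41.3% of all exons) and for 40 of 54 in RS3 (74.1% against 41.4%). The 4 exons with an FDR under 0.05 in RS3 are all of this kind, although the MYL6 and MPRIP exons carry a stop codon. The share by gene in RS3 ran from 1 of 3 exons in MYH10 to 3 of 3 in MYO6. The median length was 106 bases in RS2 and 90 bases in RS3, against 119 and 120 bases for all exons.

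Other genes of the motor system were described by 3 lists. Of 33 other myosin heavy chains, 13 were tested in RS2 and 12 in RS3, and none of their 66 and 65 events was called, where 0.0712% of all RS2 events and 0.967% of all RS3 events were. An FDR under 0.05 was listed for a 240-base exon of MYO5B, a relative of MYO5A that serves recycling endosomes, with -0.070 and an FDR of 0.0498 in RS3 in the authors' deposited table. For RS2 the authors' deposited table gave -0.031 at this MYO5B exon, with a p-value of 0.0593.

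Of 41 light chain genes and regulators of light chain phosphorylation, 27 were tested in each table. In RS3, 2 of their 140 events were called, both lower, where 0.967% of all events were called and 0.736% as lower. In RS2 it was 0 of 131, against 0.0712% of all. These counts are near the background. MYLK is the kinase that phosphorylates the regulatory light chain. Its 207-base exon (hg19, chromosome 3, 123451743 to 123451949) was at -0.166 in RS3 in the authors' deposited table, at an FDR of 0.00063. The authors' deposited table had -0.041 for this exon in RS2, with an FDR of 1. ARHGEF11 activates RhoA, and its 96-base exon was at -0.116 in RS3, at an FDR of 0.0316 in the authors' deposited table. In RS2 the authors' deposited table gave -0.043 for it, with a p-value of 0.165. With any size of difference, 5 of the 140 RS3 events had an FDR under 0.05, against 1.64% of all RS3 events. The 3 below the minimum size had differences in the authors' deposited table of 0.092 in ARHGEF1, 0.056 in ARHGEF2 and 0.014 in the regulatory light chain gene MYL9. In RS2 these exons were at 0.045, 0.016 and -0.012 in the authors' deposited table, and none passed the FDR.

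Of 28 cargo adaptors and binding partners of myosins, 25 were tested in each table. In RS3, 2 of 117 events were called, both lower, against 0.967% of all events called and 0.736% called as lower. In RS2 it was 0 of 111, against 0.0712% of all. These counts too are near the background. MLPH, melanophilin, links MYO5A to RAB27A on melanosomes. Its 120-base exon (hg19, chromosome 2, 238428553 to 238428672) had RS3 rows of -0.250 (FDR 0.0043) and 0.021 (FDR 1) in the authors' deposited table, of which the first was called. Its RS2 rows in the authors' deposited table were -0.068 and -0.004, both at an FDR of 1. SYNJ2BP, an outer mitochondrial membrane protein, had -0.181 in RS3 at an FDR of 0.00511 in the authors' deposited table. For RS2 the authors' deposited table gave -0.076 at this SYNJ2BP exon, with a p-value of 0.0564.

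S100A4, a calcium-binding protein that binds non-muscle myosin filaments, passed the FDR in both tables with opposite signs. Its 49-base exon (hg19, chromosome 1, 153517946 to 153517994) was at -0.060 in RS2 and 0.060 in RS3 in the authors' deposited table, at an FDR listed as 0 in each. Both values are under the minimum of 0.1, so neither was called. The median difference of the 3 lists ran from -0.0010 to 0.0010 over both tables, against 0.0000 in RS2 and -0.0010 in RS3 for all events.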

How the data were processed

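Per the labels' protocols, TruSeq libraries were made from mRNA selected out of DNase-treated total RNA. The submitters' processing notes name STAR, FastQC and the build hg19, without versions. The splicing program was not given in the sources used here. Per the file headers, the deposited values of an event are its difference in inclusion level, its p-value and its FDR. A further 4 columns of inclusion level per library were not used, because no label ties them to a sample. The difference was read as the first library minus the second, as seen in the first rows of each table.

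Rows were selected and counted with Python 3.11.15 and pandas 2.3.3. All calls use the deposited FDR, which covers the whole table. The calling rule was run on simulated data with large planted differences, which checks the code and not the deposited p-values. All 7 symbols matched their Ensembl identifier in the name table. Exons were matched between tables on gene, strand, start and end, with coordinates counted from 1. Of the 60 exons, 59 had an annotated GENCODE release 29 exon of the same gene, strand and length. The genes and lists were chosen with earlier results of these data known. By rule, values are given for all exons that were called, had the smallest p-value of their gene in a table, or reached a difference of 0.1 in size. Alternatives were other limits, an own adjustment of the p-values, exons with 1 row, matching by identifier and other rows of an exon.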

Additional observations from a re-analysis of the deposited data

Results flagged for a closer look

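Exons of the 7 genes stood out where every row of RS2 lay on the other side of the comparator from every row of RS3, with an FDR under 0.05 or a difference of at least 0.1 in size in a table. RS3 was not tested against RS2 for any of them, and both share the comparator library. MYO5A exon D had 0.026 in RS2 and -0.306 in RS3, per the authors' deposited table. The MYL6 exon of 45 bases had -0.013 in RS2 and 0.082 in RS3, per the authors' deposited table. The MYO18A exon of 36 bases had 0.228, 0.333 and 0.357 in RS2 and -0.038, -0.338 and -0.643 in RS3, per the authors' deposited table. The MYO6 exon of 30 bases had -0.006 in RS2 and 0.418 and 0.023 in RS3 in the authors' deposited table. Only the RS3 values of MYO5A and MYL6 had an FDR under 0.05. The side was set by the sign alone, so RS2 values near 0 count as opposite. In RS2 the deposited p-value was 0.601 for the MYO5A exon and 0.832 for the MYO6 exon.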

How the results depend on the processing

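No event of the 7 genes was called in RS2 under any of the 7 alternatives run. In RS3 the count of 2 was the same under FDR limits of 0.01 and 0.1, an own Benjamini-Hochberg adjustment, single-row exons and matching by identifier. It was 1 with a minimum difference of 0.2 (MYO5A exon D) and 4 with 0.05, which adds the MYL6 and MPRIP exons. Over all events, the 29 RS2 calls became 19 with an FDR limit of 0.01 and 11 with a minimum of 0.2, and the 411 RS3 calls became 261 and 189. The choice of row was tried for 3 exons of the 7 genes with several rows, none of them called. For the MYO18A exon of 36 bases the median over rows was 0.333 in RS2 and -0.338 in RS3. The row with the smallest p-value had 0.228 and -0.038. For the MYO18A exon of 75 bases the medians were 0.132 in RS2 and 0.310 in RS3, against 0.353 and 0.268. The median of the MYO6 exon of 30 bases was 0.221 in RS3, against 0.418. The called MLPH exon also has a row near 0 in RS3, so its call depends on the row. No paired analysis was possible because each group has 1 library. Depth is unknown, so for events with a high p-value an undetected difference and none cannot be told apart.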
